A study of Mus musculus with 10 samples.

Results

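The genes described here are 37 ligands, receptors and inhibitors of the transforming growth factor beta (TGF-beta) superfamily, taken by gene symbol from RNA sequencing of visceral fat. All 37 were found in the table of normalized counts, which lists 16667 genes, and in the table of TPM, a share of transcripts corrected for gene length, which lists 29242. The tissue came from wild-type C57BL/6 mice aged 10 weeks, and sample titles ending in gwat are read here as gonadal white adipose tissue. The tumour group was 5 mice with an orthotopic KPC pancreatic tumour, a mouse model of pancreatic ductal adenocarcinoma placed in the pancreas, and the comparison group was 5 mice after sham surgery. The sex of the mice, the time from surgery to collection and whether the tumours came from 1 cell clone are not stated in the labels.

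Superfamily ligands are secreted dimers that bring together type II and type I receptor kinases at the cell surface. TGF-betas, activins and myostatin act mainly through SMAD2 and SMAD3, and bone morphogenetic proteins (BMPs) through SMAD1, SMAD5 and SMAD9. Secreted binders such as follistatin and gremlin hold ligands away from receptors, and SMAD6 and SMAD7 block the signal inside the cell. In fat, BMP2 and BMP4 are known for committing progenitors to the fat cell lineage, TGF-beta for restraining fat cell formation and promoting fibrosis, and the activin receptor ALK7 for restraining lipolysis in mouse fat cells. Several members, among them activin A, myostatin and GDF15, are also known from studies of wasting in cancer, which gives the comparison of tumour-bearing and sham mice its question.

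No member passed the test between KPC and sham mice at an adjusted p under 0.05. The adjusted p was from limma on log2(normalized count + 1) with Benjamini-Hochberg adjustment over the 14203 genes that had a mean normalized count of at least 10. Of the 37 members, 36 passed that filter, and Grem1, a secreted BMP antagonist, did not. The count of members called higher was 0 and of members called lower 0, beside 7 genes called higher (0.0493%) and 1 called lower (0.00704%) over all genes tested. On TPM the calls over all genes were 2 higher and 0 lower. At an unadjusted limma p under 0.05, 1 of the 36 members was higher and 6 were lower, 2.78% and 16.7% of them, against 7.61% and 5.91% of all genes tested. For no member did all KPC mice lie outside the range of the sham mice, where 2.75% of all genes tested lay higher and 1.28% lower without overlap. The median log2 difference was -0.11 over the 36 members and -0.02 over all genes tested, and the median size of a difference, sign left aside, was 0.20 over the members and 0.17 over all genes. The difference was above 0 for 14 members and below 0 for 22, a share above 0 of 38.9% against 46.9% of all genes. The 95% interval lay within a fold of 2 either way for 28 of the 36. The other 8 were Tgfb2, Inha, Mstn, Gdf15, Bmp7, Acvr2b, Bmpr1b and Fst.

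**Figure D1:**
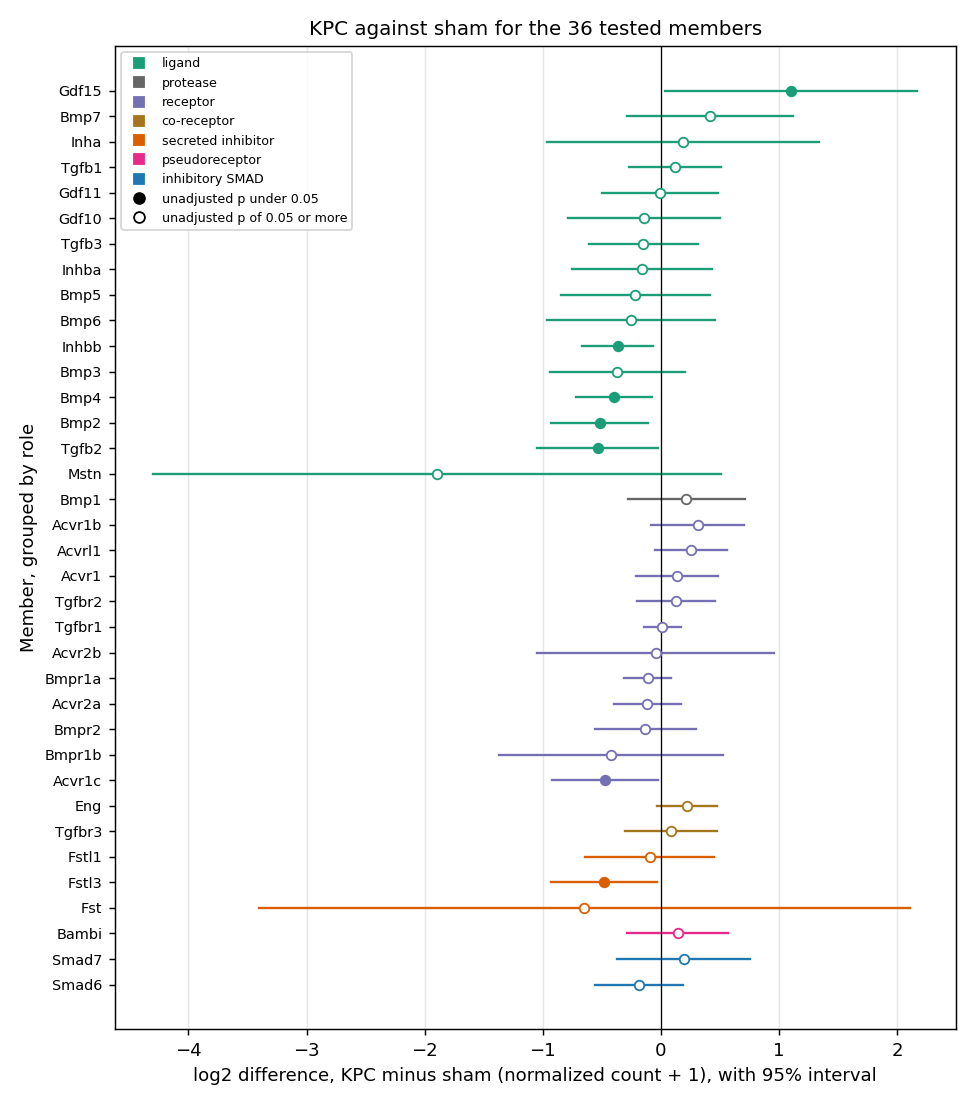
Log2 difference of each tested member between KPC and sham mice with its 95% interval (horizontal axis, log2 scale of normalized count + 1), grouped by role (n = 5 mice per group). Filled points mark the 7 members with an unadjusted limma p under 0.05, of which only Gdf15 lies to the right of 0.

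Library totals ran from 20941242 (KPC mouse 1) to 24449863 (sham mouse 1) normalized counts. KPC mouse 1 stood apart, with mitochondrially encoded genes at 15.7% of TPM, where the other 9 libraries had 26.3% to 33.3%, and a median correlation with the others of 0.908 against 0.939 to 0.959. As TPM is a share, a lower mitochondrial share leaves more of it for other genes. The part of this in the TPM values of KPC mouse 1 was not tested. Of the 37 members, 12 had their highest or lowest TPM of all 10 mice in KPC mouse 1. Tgfb1, Gdf15, Bmp1, Acvr1b, Fstl1 and Smad6 were highest there, and Tgfb2, Tgfb3, Inhbb, Bmp6, Acvr1c and Bmpr2 lowest. Sham mouse 1 held the lowest value of 12 members, 8 of them receptors or co-receptors, and the highest of Acvr1c. Sham mouse 5 held the highest value of 10 members, Tgfb2 and Bmp4 among them. Summed macrophage markers were 949.5 to 2848 TPM in KPC mice and 541 to 874.5 TPM in sham mice, and all 10 markers of that list had a positive difference. Summed neutrophil markers were 251.9 TPM in KPC mouse 1 and 17.8 to 71.2 TPM in the other KPC mice, against 13.3 to 58.4 TPM in sham mice. Summed red cell markers, all 6 with a difference above 0 and none called, were 40715.7 TPM in KPC mouse 1 and 8548.1 to 20277.8 TPM in the other KPC mice, against 4747.9 to 12869.3 TPM in sham mice. The 8 fat cell markers summed to 26457.6 to 32915.5 TPM in KPC mice and 29171.7 to 39147.1 TPM in sham mice, with none at 0. Epididymis and testis markers summed to at most 0.491 TPM in KPC mice and 0.149 TPM in sham mice, with Lcn9, Adam7, Defb20, Prm2 and Tnp1 listed at 0 in every library. In bulk tissue, fewer cells of a type and less RNA per cell cannot be told apart, and the part of cell makeup in the differences below was not tested.

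The members covered a wide range of levels, and their order was alike in both groups. Fstl1, a follistatin-related glycoprotein of stromal cells, ranked first at 114 ± 45.4 TPM in KPC mice and 121 ± 32.5 TPM in sham mice (SD, n = 5 each, as for all levels below). It was followed by the receptor Tgfbr2 at 66.0 ± 10.6 TPM in KPC mice and 62.9 ± 15.1 TPM in sham mice, and by the co-receptor Eng at 65.5 ± 13.0 TPM in KPC mice and 56.7 ± 4.73 TPM in sham mice. The spread between mice exceeded the gaps between these last 2 genes. In both groups 12 members averaged above 10 TPM and 10 below 1 TPM. The ranks of Acvr1c differed most near the top, at 7 in KPC mice and 4 in sham mice, and Gdf15 ranked 28 in KPC mice and 34 in sham mice. Summed over all 37 members the level was 541 ± 71.4 TPM in KPC mice and 552 ± 80.2 TPM in sham mice.

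**Figure D2:**
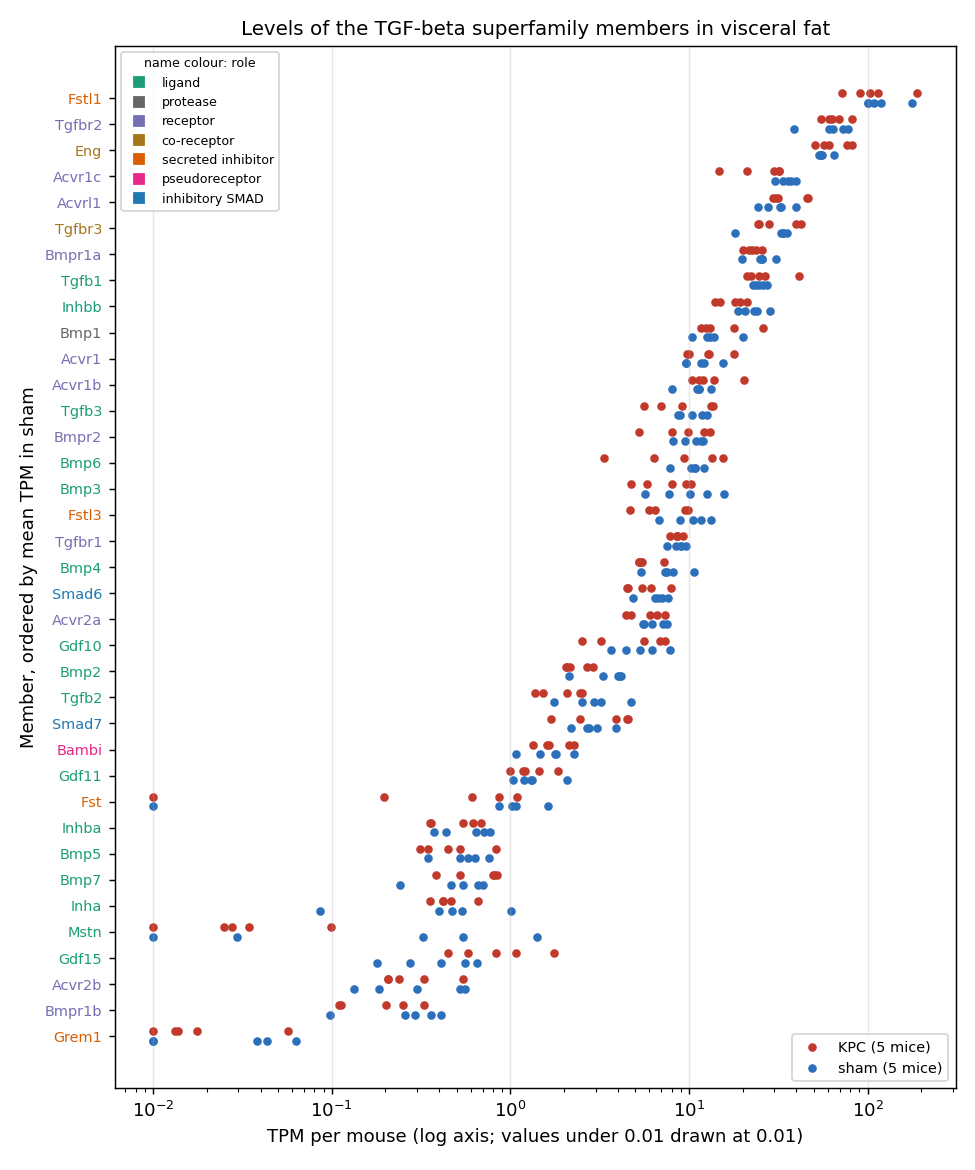
TPM of every member in each of the 10 mice (horizontal log axis, values under 0.01 drawn at 0.01), ordered by mean TPM in sham mice, with KPC points above sham points and names coloured by role. Levels run from Fstl1, above 70 TPM in every mouse, down to Grem1, under 0.1 TPM in every mouse.

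Among the TGF-beta ligands, Tgfb1 was the most abundant and Tgfb2 the least. Tgfb1, made by many cells including macrophages, stood at 41.1, 21.2, 22.1, 26.8 and 24.8 TPM in KPC mice 1 to 5 and at 27.3, 24.7, 23.8, 22.8 and 25.9 TPM in sham mice 1 to 5. Apart from KPC mouse 1 the groups overlapped over nearly their whole range. The groups differed by 0.12 ± 0.18 on the log2 scale (SE, as for all differences; fold 1.09, 95% interval 0.829 to 1.43) with a limma adjusted p of 0.799, and it was -0.056 without KPC mouse 1. Tgfb2 stood at 1.38, 2.52, 1.52, 2.47 and 2.08 TPM in KPC mice and at 1.76, 2.93, 2.51, 3.21 and 4.72 TPM in sham mice. All 5 KPC mice lay below the sham median, with sham mice 1 and 3 inside the KPC range and sham mouse 5 the highest. Its log2 difference was -0.54 ± 0.23 (fold 0.690, 95% interval 0.483 to 0.985; unadjusted p = 0.0426, limma adjusted p = 0.351), and -0.43 without KPC mouse 1. Tgfb3 averaged 9.72 ± 3.62 TPM in KPC mice and 10.5 ± 1.75 TPM in sham mice, and the log2 difference of -0.15 was 0.01 without KPC mouse 1.

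Of the activin and inhibin chains only Inhbb was abundant in this fat. Inhbb encodes the beta B chain of activin B, which fat cells are known to make. It stood at 13.9, 19.3, 15.0, 18.1 and 21.2 TPM in KPC mice 1 to 5 and at 24.0, 18.9, 23.2, 28.4 and 20.5 TPM in sham mice 1 to 5. Every KPC mouse lay below the sham median and 3 of 5 lay below all sham mice. The log2 difference was -0.36 ± 0.14 (fold 0.777, 95% interval 0.630 to 0.957; unadjusted p = 0.0220, limma adjusted p = 0.3003). Inhba, the beta A chain of activin A, stood at 0.683, 0.360, 0.544, 0.353 and 0.619 TPM in KPC mice and at 0.375, 0.437, 0.712, 0.641 and 0.766 TPM in sham mice. These ranges overlapped almost fully, and the log2 difference was -0.16 ± 0.27 (fold 0.895, 95% interval 0.592 to 1.35; limma adjusted p = 0.827). It was -0.29 without KPC mouse 1 and -0.013 without KPC mouse 4. Inha, the inhibin alpha chain, averaged 0.464 ± 0.116 TPM in KPC mice and 0.501 ± 0.333 TPM in sham mice.

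Acvr1c encodes ALK7, a type I receptor of fat cells for activin B and related ligands. It stood at 14.8, 29.9, 31.98, 32.07 and 21.1 TPM in KPC mice 1 to 5 and at 39.9, 33.8, 37.4, 30.3 and 36.1 TPM in sham mice 1 to 5. KPC mice 1 and 5 were the lowest, and only sham mouse 4 lay inside the KPC range. For Acvr1c the log2 difference was -0.47 ± 0.20 (fold 0.722, 95% interval 0.529 to 0.985; unadjusted p = 0.0413, limma adjusted p = 0.347), and -0.30 without KPC mouse 1, which also had the lowest summed fat cell markers, at 26457.6 TPM. Adipoq, a fat cell hormone gene, stood at 3322, 4868, 3875, 4899 and 4354 TPM in KPC mice and at 3936, 3874, 5245, 4093 and 4300.4 TPM in sham mice, and Plin1, the fat droplet coat protein, at 66.2, 122, 85.3, 125 and 79.2 TPM in KPC mice and at 123, 143, 142, 137 and 114 TPM in sham mice. Of the 8 fat cell markers, 3 had a difference above 0 and 5 below 0, with a median log2 difference of -0.14 and none called. Plin1 (-0.47 ± 0.16, limma adjusted p = 0.279) was the only marker of the list with an unadjusted p under 0.05. The 3 markers above 0 were Adipoq at 0.02, Cidec at 0.05 and Fabp4 at 0.01. Below 0, besides Plin1, were Lep at -0.61 ± 0.32, Retn at -0.38, Lipe at -0.20 and Pnpla2 at -0.08. KPC mice 1 and 5 were the lowest KPC mice in Acvr1c, Plin1 and Cidec, and not in the other 6 fat cell markers.

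The promoters of Inhbb, Acvr1c and Fstl3 are shown because these genes, the activin B chain, its fat cell receptor and a binder of activins, all had an unadjusted p under 0.05 in the same direction. Fstl3, a secreted glycoprotein that binds activins and myostatin, is described with the inhibitors. Each run is the 250 bases before the RefSeq start on GRCm38.p6, written 5′ to 3′ on the gene's strand. Capitals mark matches on either strand to the GC box GGGCGG, the SMAD motif CAGAC, the CCAAT box and the TATA box TATAAA, and neighbouring matches may overlap.
Inhbb, chr1:119422249-119422498, minus strand: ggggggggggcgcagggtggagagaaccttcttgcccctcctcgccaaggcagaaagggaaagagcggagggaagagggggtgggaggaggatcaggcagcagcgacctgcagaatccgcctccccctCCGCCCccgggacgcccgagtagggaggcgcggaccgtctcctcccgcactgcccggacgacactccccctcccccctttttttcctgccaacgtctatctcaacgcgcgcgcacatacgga
Acvr1c, chr2:58357759-58358008, minus strand: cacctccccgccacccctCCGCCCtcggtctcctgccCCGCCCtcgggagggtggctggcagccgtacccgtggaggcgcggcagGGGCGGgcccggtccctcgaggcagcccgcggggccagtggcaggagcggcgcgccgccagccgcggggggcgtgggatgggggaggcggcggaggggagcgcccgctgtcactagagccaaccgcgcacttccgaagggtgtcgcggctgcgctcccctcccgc
Fstl3, chr10:79777024-79777273, plus strand: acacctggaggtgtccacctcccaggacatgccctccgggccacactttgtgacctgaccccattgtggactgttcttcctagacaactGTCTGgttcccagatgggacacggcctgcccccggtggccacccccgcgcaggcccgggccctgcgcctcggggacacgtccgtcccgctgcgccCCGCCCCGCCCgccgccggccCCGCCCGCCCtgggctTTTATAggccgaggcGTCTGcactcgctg
RefSeq gives Acvr1c a second start, whose window of the same length had a G and C share of 49.6% and no GC box. In the windows printed, the G and C share was 68.0% for Inhbb, 79.6% for Acvr1c and 71.2% for Fstl3, against a median of 52.4% over all RefSeq promoters of the same length. The GC box was matched 1 time in Inhbb, 3 times in the printed Acvr1c window and 4 times in Fstl3, and 32.7% of 32851 such promoters hold at least 1. The SMAD motif was matched 2 times in Fstl3 only, and 42.2% of promoters hold it. Only Fstl3 of the 3 had a TATA box, as do 12.4% of promoters, and none had a CCAAT box, which 33.8% hold. RefSeq promoters were found for 27 of the 37 members, and no member's window held the longer SMAD element GTCTAGAC, found in 0.167% of all promoters. On GRCm38 with GENCODE vM21 all are protein-coding, with Inhbb (ENSMUSG00000037035) on chromosome 1 from 119415465 to 119422248, Acvr1c (ENSMUSG00000026834) on chromosome 2 from 58267453 to 58357895 and Fstl3 (ENSMUSG00000020325) on chromosome 10 from 79777272 to 79782630. The GENCODE start of Acvr1c, at 58357895, lies inside its printed RefSeq window, so by GENCODE part of that window is within the gene. The GENCODE start of Fstl3, at 79777272, lies at the very end of its window.

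Gdf15 was the only member with an unadjusted p under 0.05 in the higher direction. It encodes a stress-induced hormone that lowers feeding through the hindbrain receptor GFRAL. It stood at 1.76, 1.08, 0.445, 0.837 and 0.578 TPM in KPC mice 1 to 5 and at 0.651, 0.274, 0.179, 0.554 and 0.409 TPM in sham mice 1 to 5. All KPC mice lay above the sham median and 3 of 5 above all sham mice. The log2 difference was 1.10 ± 0.49 (fold 2.15, 95% interval 1.02 to 4.50; unadjusted p = 0.0442, limma adjusted p = 0.357), and 0.83 with an adjusted p of 0.531 without KPC mouse 1. Its mean normalized count was 16.6, near the filter, so each value rests on few reads. KPC mouse 1, the highest in Gdf15, also had the highest summed macrophage markers, at 2848 TPM. Gdf15 (ENSMUSG00000038508) lies on chromosome 8 from 70629393 to 70632456, minus strand.

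Neither myostatin nor its close relative Gdf11 was called. Mstn, the skeletal muscle hormone that limits muscle mass, stood at 0.0250, 0.0277, 0.0342, 0 and 0.0988 TPM in KPC mice 1 to 5 and at 0, 0.0296, 0.323, 0.542 and 1.40 TPM in sham mice 1 to 5. Sham mice 3, 4 and 5 lay above all KPC mice, and sham mice 1 and 2 lay within the KPC range. The log2 difference of -1.90 ± 1.10 had a limma adjusted p of 0.469 and a 95% interval of -4.30 to 0.51. Its mean normalized count was 10.6, and 2 libraries were listed at 0. The 9 skeletal muscle markers, none of them called, stood at 60.2, 50.5, 64.7, 64.6 and 203 TPM summed in KPC mice and at 83.4, 45.8, 446.5, 1239 and 3626 TPM in sham mice. Sham mice 3 to 5 were again the highest, and the part of muscle tissue in the Mstn difference was not tested. Gdf11 averaged 1.34 ± 0.331 TPM in KPC mice and 1.39 ± 0.401 TPM in sham mice, with a log2 difference of -0.01 ± 0.22. Gdf10, a ligand related to BMP3, averaged 5.11 ± 2.15 TPM in KPC mice and 5.50 ± 1.61 TPM in sham mice.

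**Figure D3:**
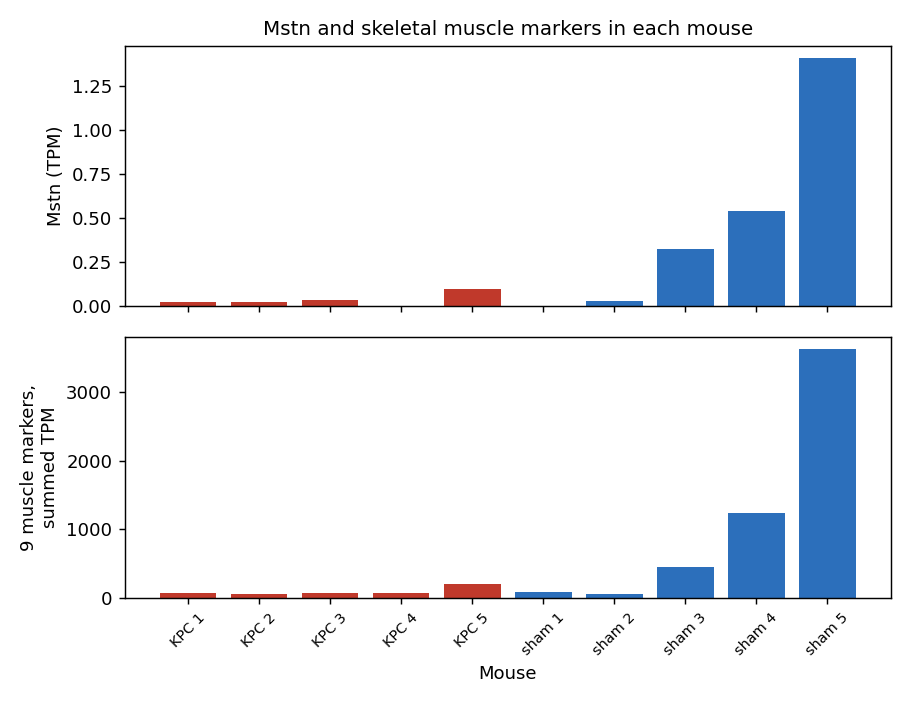
Mstn (upper bars, TPM) and the summed TPM of 9 skeletal muscle markers (lower bars) in each mouse, KPC in red and sham in blue. Sham mice 3, 4 and 5 are the highest 3 libraries in both, with Mstn at 0.323, 0.542 and 1.40 TPM.

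Of the 6 BMP ligands, 5 had a negative difference, and Bmp2 and Bmp4 had an unadjusted p under 0.05. Bmp2 stood at 2.67, 2.89, 2.09, 2.06 and 2.16 TPM in KPC mice 1 to 5 and at 2.13, 4.02, 4.19, 4.14 and 3.31 TPM in sham mice 1 to 5. Sham mouse 1 was the only sham mouse inside the KPC range, and the other 4 lay above all KPC mice. The log2 difference was -0.52 ± 0.19 (fold 0.698, 95% interval 0.525 to 0.927; unadjusted p = 0.0174, limma adjusted p = 0.289), and -0.58 without KPC mouse 1. Bmp4 stood at 5.37, 5.47, 5.25, 7.28 and 5.23 TPM in KPC mice and at 5.41, 7.35, 7.55, 8.16 and 10.7 TPM in sham mice. Sham mice 2 to 5 all lay above the KPC mice, and sham mouse 1 lay among the lower KPC values. The log2 difference was -0.40 ± 0.15 (fold 0.760, 95% interval 0.607 to 0.951; unadjusted p = 0.0209, limma adjusted p = 0.299), and -0.39 without KPC mouse 1. Bmp2 (ENSMUSG00000027358) lies on chromosome 2 from 133552159 to 133562885 and Bmp4 (ENSMUSG00000021835) on chromosome 14 from 46383520 to 46390669.

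The remaining BMP genes overlapped between the groups. Bmp6, a ligand of endothelial cells known from iron regulation, ran from 3.36 to 15.4 TPM in KPC mice and from 7.83 to 12.2 TPM in sham mice, so its spread in KPC mice held the whole sham range. Its log2 difference was -0.25 ± 0.32, and 0.06 without KPC mouse 1. Summed endothelial markers were 215 TPM in KPC mouse 1, the library lowest in Bmp6, 430 TPM in KPC mouse 5, the highest, and 268 to 341 TPM in sham mice. Bmp3, which opposes other BMPs, averaged 7.70 ± 2.41 TPM in KPC mice and 10.4 ± 3.97 TPM in sham mice (log2 difference -0.37 ± 0.26). Bmp5 averaged 0.491 ± 0.206 TPM in KPC mice and 0.569 ± 0.153 TPM in sham mice. Bmp7, known for promoting brown fat, averaged 0.672 ± 0.205 TPM in KPC mice and 0.523 ± 0.184 TPM in sham mice, with 3 of 5 KPC mice above all sham mice and a limma adjusted p of 0.588. Bmp1 is no ligand but a protease that trims procollagens and the BMP antagonist chordin. It averaged 16.3 ± 6.06 TPM in KPC mice, or 13.8 ± 2.87 TPM without KPC mouse 1, and 14.01 ± 3.66 TPM in sham mice.

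**Figure D4:**
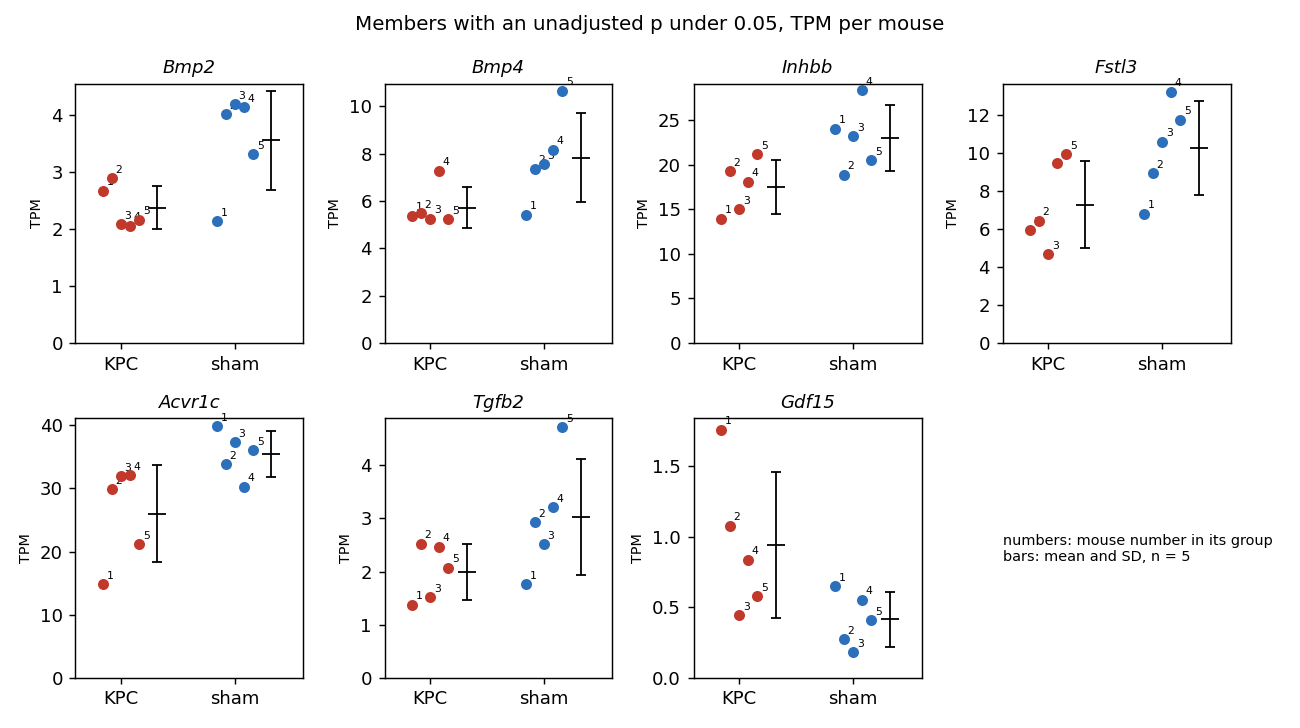
TPM in each mouse (vertical axes from 0) for the 7 members with an unadjusted p under 0.05, KPC left and sham right, with mouse numbers and mean and SD (n = 5). The groups overlap in every panel, and sham mouse 1 lies within the KPC range for Bmp2, Bmp4, Fstl3, Tgfb2 and Gdf15.

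Summed receptor levels lay within 1 SD of each other in the groups. Of the 11 receptor kinases, 5 had a positive and 6 a negative difference, Acvr1c being the only 1 with an unadjusted p under 0.05. The type I receptors summed to 121 ± 14.8 TPM in KPC mice and 124 ± 13.6 TPM in sham mice, and the type II receptors to 81.9 ± 14.3 TPM in KPC mice and 80.1 ± 17.1 TPM in sham mice. Tgfbr1, the type I receptor of TGF-beta, had the tightest interval of all members, at 8.60 ± 0.522 TPM in KPC mice and 8.75 ± 0.804 TPM in sham mice (fold 1.01, 95% interval 0.903 to 1.13). For Tgfbr2, which binds TGF-beta first, the fold was 1.09 with an interval of 0.870 to 1.38. Bmpr1a, the main type I receptor for BMP2 and BMP4, averaged 22.8 ± 2.10 TPM in KPC mice and 25.4 ± 3.88 TPM in sham mice (fold 0.927, 95% interval 0.807 to 1.06). Bmpr2, the BMP type II receptor, averaged 9.70 ± 3.20 TPM in KPC mice and 10.5 ± 1.57 TPM in sham mice. Acvr1b, the ALK4 receptor of activins, averaged 13.6 ± 3.98 TPM in KPC mice and 11.03 ± 1.90 TPM in sham mice, and its log2 difference of 0.31 ± 0.18 was 0.14 without KPC mouse 1. Acvr1, known as ALK2, averaged 12.7 ± 3.21 TPM in KPC mice and 11.7 ± 2.41 TPM in sham mice. The activin type II receptor Acvr2a averaged 5.84 ± 1.22 TPM in KPC mice and 6.41 ± 0.915 TPM in sham mice, while Acvr2b and Bmpr1b stayed under 1 TPM in every mouse.

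The 3 genes of the endothelial and co-receptor side all had positive differences that did not pass. Acvrl1, the endothelial type I receptor ALK1, averaged 36.8 ± 8.43 TPM in KPC mice and 31.3 ± 5.71 TPM in sham mice (log2 difference 0.26 ± 0.14, limma adjusted p = 0.437). Eng, endoglin, its co-receptor, had a log2 difference of 0.22 ± 0.11 and a limma adjusted p of 0.420. Both were highest in KPC mouse 5, at 46.2 TPM for Acvrl1 and 81.6 TPM for Eng, which was also the library with the highest summed endothelial markers. KPC mouse 1 had the lowest sum, but Acvrl1 was lowest in sham mouse 1 and Eng in KPC mouse 2. Of the 7 endothelial markers, 4 had a positive and 3 a negative difference, with a median of 0.007. Tgfbr3, betaglycan, which presents TGF-beta2 and inhibin, averaged 31.9 ± 8.66 TPM in KPC mice and 30.7 ± 7.13 TPM in sham mice.

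The inhibitors showed no call in either direction. Fstl3 stood at 5.94, 6.43, 4.67, 9.47 and 9.93 TPM in KPC mice 1 to 5 and at 6.81, 8.95, 10.6, 13.2 and 11.8 TPM in sham mice 1 to 5. All KPC mice lay below the sham median, 3 of them below all sham mice. For Fstl3 the log2 difference was -0.48 ± 0.20 (fold 0.716; 95% interval of the log2 difference -0.93 to -0.04; unadjusted p = 0.0362, limma adjusted p = 0.338). Fst, follistatin, stood at 0.610, 0.196, 1.10, 0.863 and 0 TPM in KPC mice and at 0, 1.08, 1.62, 0.861 and 1.02 TPM in sham mice. With 1 library of each group listed at 0, its log2 difference of -0.65 ± 1.26 had an interval from -3.41 to 2.11, and it was 0.26 without KPC mouse 5. Fstl1 had a log2 difference of -0.10 ± 0.25, and -0.32 without KPC mouse 1, where it was highest at 190.0 TPM. Grem1 was listed at 0 to 0.0567 TPM in KPC mice and 0 to 0.0630 TPM in sham mice.

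Inside the cell, Smad6, which blocks mainly BMP signals, averaged 5.71 ± 1.42 TPM in KPC mice and 6.57 ± 1.03 TPM in sham mice, and its log2 difference of -0.18 ± 0.17 was -0.33 without KPC mouse 1. Smad7, which blocks both branches and is itself induced by TGF-beta, averaged 3.43 ± 1.29 TPM in KPC mice and 2.92 ± 0.635 TPM in sham mice, with 3 of 5 KPC mice at or above the highest sham value. Bambi, a receptor-like protein without a kinase, averaged 1.79 ± 0.386 TPM in KPC mice and 1.68 ± 0.445 TPM in sham mice. The log2 ratio of ligand to inhibitor was compared for 6 pairs by an exact two-sided permutation test, in which 5 mice against 5 can go no lower than p = 0.0079. The ratios were taken on normalized counts + 1, which are not corrected for gene length. They compare the groups and do not give the relative levels of the genes in a pair. The ratio of Inhbb to Fstl3, the best measured pair, was 2.84 ± 0.32 in KPC mice and 2.72 ± 0.38 in sham mice on the log2 scale (exact p = 0.643, adjusted p = 0.825). In TPM, Inhbb averaged 17.5 and Fstl3 7.29 in KPC mice, and 23.0 and 10.3 in sham mice. The other 5 pairs were Inhba to Fst, Inhba to Fstl3, Inhbb to Fst, Bmp2 to Grem1 and Bmp4 to Grem1. They had exact p-values of 0.349 to 0.825 and the same adjusted p. Grem1 averaged 1.92 normalized counts, under the filter, and Fst was listed at 0 in 1 library of each group. Log2 ratios to Grem1 or Fst had SDs of 0.74 to 2.56, too wide for their tests to say whether the balance changed.

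The title of each sample starts with a number, 1, 2 or 4, whose meaning the labels do not give. Within these numbers the 7 members with an unadjusted p under 0.05 kept the sign of their difference in 6 cases. They were picked for a low p in these same mice, so a kept sign adds no independent support. Within numbers 1, 2 and 4 in turn the log2 difference was -0.08, -0.84 and -0.64 for Bmp2, -0.22, -0.43 and -0.78 for Bmp4 and -0.38, -0.62 and -0.06 for Inhbb. It was -0.34, -1.19 and -0.27 for Fstl3, -0.29, -0.75 and -1.05 for Tgfb2 and above 0 in all 3 for Gdf15, at 0.56 in number 2 and 0.71 in number 4. The exception was Acvr1c, at -0.81, 0.08 and -0.47. Number 2 holds only 1 KPC mouse and number 4 only 1 sham mouse.

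Other genes of the pathway were read from lists that hold no member. Of 19 target genes of TGF-beta and activin, all tested, 0 passed and 5 had an unadjusted p under 0.05, all higher, where 7.61% of all genes were. Their median log2 difference was -0.02, with 8 positive and 11 negative. Tgfbi, a matrix protein named for its induction by TGF-beta, stood at 77.1, 36.3, 51.3, 56.8 and 39.9 TPM in KPC mice and at 20.1, 27.9, 38.2, 28.8 and 43.1 TPM in sham mice (log2 difference 0.75 ± 0.22, limma adjusted p = 0.217). Timp1, an inhibitor of matrix proteases, averaged 51.9 ± 77.9 TPM in KPC mice, or 17.2 TPM without KPC mouse 1, and 7.54 ± 2.78 TPM in sham mice (adjusted p = 0.296). Ccn2, connective tissue growth factor, averaged 21.8 ± 11.4 TPM in KPC mice and 11.1 ± 2.80 TPM in sham mice (adjusted p = 0.297), and Ccn1 was also among the 5. The collagen genes Col1a1, Col1a2 and Col3a1 had log2 differences of -0.29, -0.05 and -0.04, and the smooth muscle genes Acta2 and Tagln of -1.02 and -0.56. Sham mouse 5 was the highest sham mouse in each of these. It had 268.6 TPM of Col1a1, against 68.05 to 109.9 TPM in the other sham mice. For Acta2 it had 1064.7 TPM against 128.9 to 428.7 TPM. All 7 smooth muscle and pericyte markers, Acta2 and Tagln among them, had negative differences, with summed levels of 305 to 1113 TPM in KPC mice and 451 to 2549 TPM in sham mice. The 2549 TPM was that of sham mouse 5, and the other sham mice had 451 to 978 TPM.

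Of the 12 BMP target genes 10 were tested, with 5 positive, 5 negative and none called. Id3, a repressor induced by BMP, averaged 128 ± 25.8 TPM in KPC mice and 101 ± 9.94 TPM in sham mice (log2 difference 0.35 ± 0.15, adjusted p = 0.338), and was the only 1 with an unadjusted p under 0.05. Id4 averaged 2.93 ± 1.50 TPM in KPC mice and 4.50 ± 1.82 TPM in sham mice, and Id1 80.5 ± 43.7 TPM in KPC mice and 49.4 ± 4.85 TPM in sham mice, with KPC mice 2, 4 and 5, at 61.2, 138 and 116 TPM, above the sham range. Of 16 SMADs and intracellular regulators, 14 had a negative difference, with a median of -0.09 and none called. The 2 positive ones were the only ones with an unadjusted p under 0.05. These were Smad1, a BMP-branch SMAD, at 10.8 ± 1.73 TPM in KPC mice and 9.002 ± 1.302 TPM in sham mice (adjusted p = 0.291), and Tgif1, a repressor of SMAD2 and SMAD3, at 7.43 ± 2.11 TPM in KPC mice and 5.42 ± 0.590 TPM in sham mice (adjusted p = 0.328). Tgif1 averaged 6.59 TPM in KPC mice without mouse 1. The shared partner Smad4 averaged 20.7 ± 2.53 TPM in KPC mice and 23.4 ± 2.76 TPM in sham mice.

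**Figure D5:**
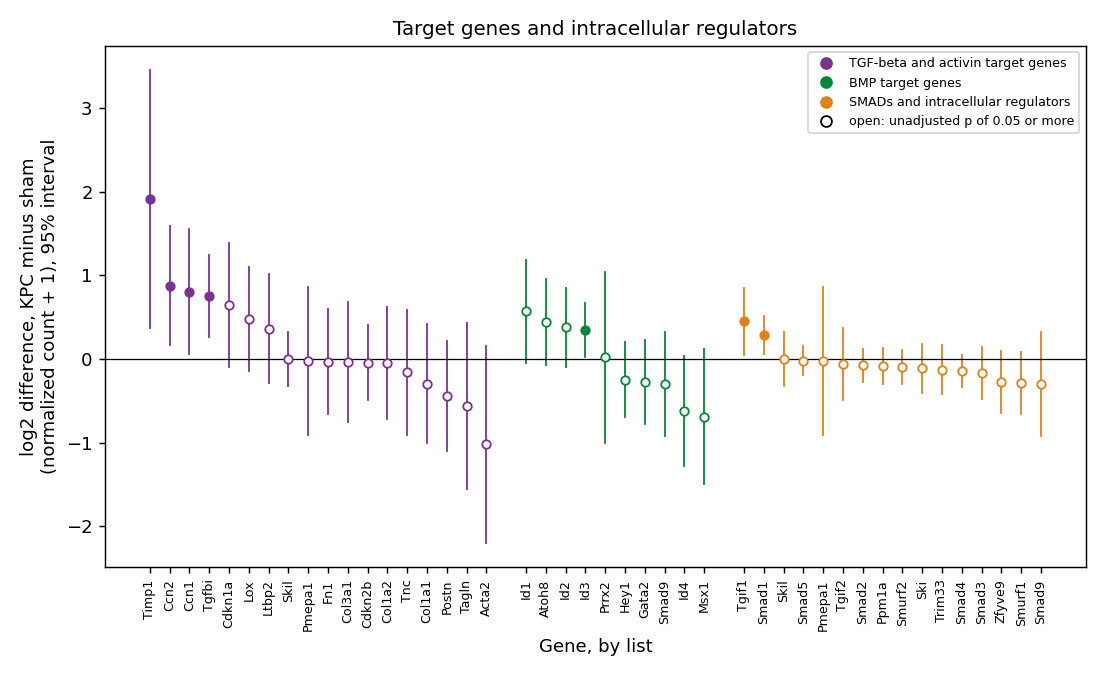
Log2 difference between KPC and sham mice with its 95% interval (vertical axis, log2 scale of normalized count + 1) for target genes of TGF-beta and activin, BMP target genes and intracellular regulators (n = 5 mice per group), filled where the unadjusted limma p was under 0.05. Skil, Pmepa1 and Smad9 stand in 2 lists each, and 18 of the 19 TGF-beta and activin targets are drawn. Filled points all lie above 0.

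Among 16 tested antagonists and co-receptors that are no members, none was called, and 1 was higher and 1 lower at an unadjusted limma p under 0.05. Hjv, hemojuvelin, a BMP co-receptor of skeletal muscle and liver, stood at 0.364, 1.83, 1.40, 0.963 and 2.05 TPM in KPC mice and at 2.02, 2.23, 3.53, 7.41 and 13.9 TPM in sham mice. The groups met at KPC mouse 5 and sham mouse 1 in TPM and did not overlap in normalized counts (log2 difference -1.89 ± 0.57, adjusted p = 0.229). Sham mice 3 to 5 were highest here as in the skeletal muscle markers. Nog, noggin, averaged 0.931 ± 0.165 TPM in KPC mice and 1.54 ± 0.586 TPM in sham mice (adjusted p = 0.387). Of 15 tested latency and ligand-binding proteins none had an unadjusted p under 0.05, and the smallest were those of the proteoglycan Bgn (log2 difference 0.48 ± 0.23), Nrros, which holds latent TGF-beta on myeloid cells (0.55 ± 0.28), and the integrin chain Itgav (-0.21 ± 0.12). Nrros stood at 42.4 TPM in KPC mouse 1 and averaged 15.4 TPM in the other KPC mice, against 13.2 TPM in sham mice. Of 6 tested further ligands none passed either. Gdf3, a ligand of ALK7 made by macrophages in mouse fat, stood at 4.44 TPM in KPC mouse 1 and at 0.189 to 0.420 TPM in the other KPC mice, against 0.108 to 0.421 TPM in sham mice. Lefty1, which blocks Nodal, averaged 3.20 ± 0.921 TPM in KPC mice and 4.21 ± 1.21 TPM in sham mice (adjusted p = 0.565).

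The reads were assigned by the authors with a strand setting that is not given in the sources used here. Exons of 12 members overlap an exon of a gene on the other strand, so it is not known whether reads there were told apart. Among the partners with a listed TPM, the most abundant were Txndc5 at 73.8 TPM beside Bmp6, Orc4 at 30.9 TPM beside Acvr2a and Fpgs at 7.77 TPM beside Eng. For Fstl3 the partner Prss57 averaged 0.171 TPM and for Bmp4 the partner Gm15217 averaged 0.092 TPM. Other partners had no TPM listed under their Ensembl identifier, so their levels are unknown. Among these were Gm29491 beside Tgfb2, Gm13544 beside Acvr1c and Gm26903, which overlaps an exon of Bmp5 over 1878 bases.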

How the data were processed

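RNA from visceral fat of 10 mice was sequenced, 5 KPC and 5 sham, grouped and numbered by the labels. The authors deposited normalized counts, which were treated as signal values of 0 or more, and TPM. Tools named in the submitters' processing notes were Salmon, DESeq and DESeq2, with the build mm10 and no versions. At the best step per sample, 31.1% to 47.3% of normalized counts up to 30 lay within 0.05 of a whole number, so reads were not recovered, depth is unknown and no count model was run. Members were matched by symbol and placed by Ensembl identifier for 37 of 37.

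Genes averaging 10 or more normalized counts entered limma 3.58.1 (R 4.3.3; variance trend, pseudocount 1, Benjamini-Hochberg, threshold 0.05), which was also tested on simulated data. Fold changes are on the log2(value + 1) scale, which understates those of low genes. The limma p-values set each group difference against the spread between these mice, with a variance estimate that draws on all genes tested. Members and lists were chosen with earlier results of these data known. Every mouse's value is given for members with an unadjusted p under 0.05 or no overlap, and for Tgfb1, Inhba, Inhbb, Mstn, Gdf15, Bmp4, Acvr1c and Fst. Up to 3 genes with the smallest p were named per list of other genes. Ccn1, Col1a1, Col1a2, Col3a1, Acta2, Tagln, Adipoq, Plin1, Cidec, Fabp4, Lep, Retn, Lipe and Pnpla2 were chosen after their values were seen. Some genes counted in the lists are not reported here by name. Alternatives were another pseudocount, other filters, TPM, trimmed-mean (TMM) and quantile scaling, other variance priors, blocks and leaving out each mouse.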

Additional observations from a re-analysis of the deposited data

Results flagged for a closer look

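Of 74 groups of 5 mice examined, 37 members in KPC and in sham, 6 held a mouse whose gap to the nearest other exceeded 0.71 of the group's range, where chance gives about 1 in 20. In KPC mice, Tgfb1 stood at 41.1 TPM in mouse 1, against 21.2 to 26.8 TPM in the other 4. Also in KPC mice, Bmp4 stood at 7.28 TPM in mouse 4, against 5.23 to 5.47 TPM. In sham mice, 3 of the 4 set apart were values of mouse 5, with Gdf11 at 2.07 TPM against 1.03 to 1.32 TPM, Eng at 65.1 TPM against 53.7 to 55.6 TPM and Fstl1 at 177 TPM against 100.1 to 119 TPM. Tgfbr3 stood at 18.1 TPM in sham mouse 1, against 32.7 to 35.6 TPM in the other 4.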

How the results depend on the processing

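No member was called under any of the 20 alternatives, and the lowest adjusted p of any member was 0.205, for Bmp2 without sham mouse 1. At an unadjusted p under 0.05 there were 0 to 2 members higher and 2 to 6 lower in each. Of 215 values of the 11 members followed, 213 kept their sign. The exceptions were Tgfb1, at -0.056 without KPC mouse 1 (-0.056 to 0.20 over single mice left out), and Fst, at 0.26 without KPC mouse 5 (-1.72 to 0.26). Of the 11, 7 were followed for an unadjusted limma p under 0.05 in these same mice, which favours a kept sign. Among members not followed, Tgfb3, Bmp6, Bmpr2, Tgfbr1 and Acvr2b changed sign without KPC mouse 1, to 0.015, 0.058, 0.055, -0.005 and 0.033. On TPM the log2 difference was -0.42 for Mstn and 0.43 for Gdf15, against -1.90 and 1.10 on normalized counts. Both genes averaged under 1 TPM in each group, where a pseudocount of 1 shrinks a difference, so these values do not show that TPM and normalized counts disagree. Over all genes, where 7 were called higher and 1 lower, the counts were 2 and 0 on TPM (860 and 916 at an unadjusted limma p under 0.05), 17 higher with TMM scaling and 2 higher without a trend. Leaving out 1 mouse gave 1 to 67 higher and 1 to 4 lower. The highest counts, 67 and 4, came without KPC mouse 1, and 13 higher came without KPC mouse 2. The higher count was 1 to 4 without KPC mice 4 or 5 or any 1 sham mouse, and the lower count was 2 without KPC mouse 3. The cause was not tested. With the description number as a replicate block, 3 were called higher, and no member. Same-numbered mice correlated at 0.005 to 0.191 in their deviations, and 4 of 10 mice correlated best with their own number, so the numbers were not taken as pairs. With the title number as a block, 3 were called higher. The intervals of Inha, Mstn, Gdf15 and Acvr2b, the tested members with the lowest normalized counts, reached past a fold of 2, and the depth behind them is unknown.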
